A study of Mus musculus with 12 samples.

Results

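Malignant peripheral nerve sheath tumours (MPNSTs) of the mouse were divided into 2 sets, chosen by the copy-number ratio measured at the tumour suppressor locus Cdkn2a, and the rest of their autosomes was compared between the sets. All 11 tumours of the series, measured on 12 arrays, entered the comparison. A tumour was placed in the Cdkn2a-deleted set where the mean log2 ratio of the 2 probes named Cdkn2a was -2 or lower, which held for 6 tumours on 7 arrays (231 Trig, B86, B91, A382, B96 and A394). The other 5 tumours on 5 arrays had means above -2 and form the Cdkn2a-retaining set (A18, A202, A390, A292 and B76). A log2 ratio is the base-2 logarithm of tumour over reference signal, here centred so that the median autosomal probe of each array is 0. A gain is therefore positive, and a loss negative, relative to that tumour's own median.

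The study hybridised tumour DNA labelled with Cy5 against Schwann cell DNA labelled with Cy3 on oligonucleotide arrays for comparative genomic hybridisation. Every tumour in both sets came from a P0-GGFβ3 transgenic mouse, in which a promoter active in Schwann cells drives the GGFβ3 isoform of neuregulin-1. The reference was non-neoplastic Schwann cells of wild-type C57BL/6J mice. All DNA came from cultures: the tumour explants were started with forskolin and NRG1β and later grown without them, whereas Schwann cells received both throughout. Within the Cdkn2a-deleted set 231 Trig, A382 and A394 arose on a mixed background (C57BL/6J x SJL/J), while the mice of the other 3, B86, B91 and B96, were C57BL/6J. Within the Cdkn2a-retaining set A18, A202, A390 and A292 were of the mixed background and B76 of C57BL/6J. The reference is C57BL/6J in every case, so SJL/J alleles enter only the ratios of mixed-background tumours. Ages of the mice were not used here. Each tumour is 1 culture, and nothing in the labels says whether any of them shared an animal or litter, so p-values measure only the spread between these samples. A ratio averages over all cells of a culture, so a change in some of the cells and a smaller change in all of them cannot be told apart.

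Cdkn2a encodes, from overlapping reading frames, the proteins p16INK4a and p19ARF. The INK4a protein inhibits the cyclin D kinases Cdk4 and Cdk6 and so keeps Rb active, whereas ARF inhibits Mdm2 and so protects p53. Loss of the locus is a frequent step in the progression of human neurofibroma to MPNST, and Myc is another known driver of growth in these tumours.

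The values that define the sets rest on the 2 Cdkn2a probes that follow. The gene values given below for Myc and Gli1 each rest on a single probe, which is shown as well. All are of 60 bases or shorter. The segments that hold these genes rest on further probes, with at least 5 in each segment. Positions are in build mm9, and the strand is not given in the sources used here. Exon and intron positions are not given either, since no annotation of that build was used. The Cdkn2a probes lie at chr4:88934358-88934417 and chr4:88938065-88938124.
Cdkn2a, probe 1: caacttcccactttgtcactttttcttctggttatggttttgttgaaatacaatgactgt
Cdkn2a, probe 2: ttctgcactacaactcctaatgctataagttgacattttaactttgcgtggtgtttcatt
The single Myc probe lies at chr15:61818043-61818102 and the single Gli1 probe at chr10:126770197-126770252.
Myc: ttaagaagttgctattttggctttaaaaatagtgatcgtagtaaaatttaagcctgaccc
Gli1: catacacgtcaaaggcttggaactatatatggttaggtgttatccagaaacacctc

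At the locus that defines the sets, the Cdkn2a means were -4.57 in 231 Trig, -5.19 in B86, -3.35 in B91, -3.60 in A382, -3.31 in B96 and -3.52 in A394. In the Cdkn2a-retaining tumours they were -0.06 in A18, -0.42 in A202, -0.17 in A390, -0.97 in A292 and -0.09 in B76. These values chose the sets and carry no test. Just inside the limit lay B96 at -3.31, and just outside it lay A292 at -0.97, so no tumour fell near -2 itself. The 2 passages of A382 were alike at this locus, with -3.71 at passage 8 and -3.50 at passage 9. A292 stands apart within its set. Both of its Cdkn2a probes were below 0, at -1.12 and -0.83, and they lay in a segment of 7 probes over 227 kb with a mean of -0.68. In the Cdkn2a-deleted tumours the segment with Cdkn2a was shortest in A394 (5 probes over 121 kb, mean -2.09) and longest in 231 Trig (9 probes over 491 kb, mean -4.47). Mtap, the methylthioadenosine phosphorylase gene next to Cdkn2a, averaged -2.49 ± 1.55 in the Cdkn2a-deleted tumours and -0.40 ± 0.13 in the Cdkn2a-retaining tumours (SD, n = 6 and 5). It was at -0.88 in A382 and -0.27 in A394, so its low values did not reach all 6 Cdkn2a-deleted tumours.

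**Figure D1:**
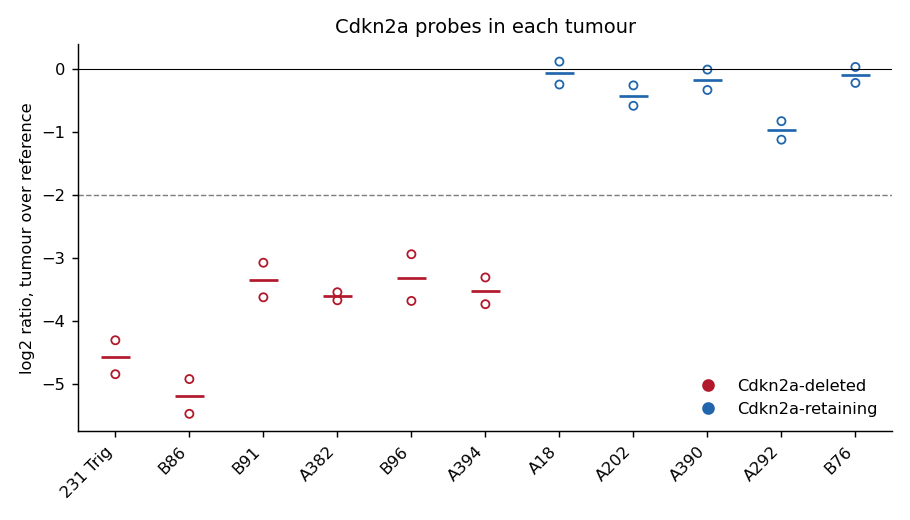
Log2 ratio (tumour over reference) of the 2 Cdkn2a probes in each tumour, as open circles, with their mean as a short bar. The dashed line marks the limit of -2. The 6 Cdkn2a-deleted tumours on the left have means from -5.19 to -3.31, and the 5 Cdkn2a-retaining tumours on the right have means from -0.97 to -0.06.

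The first question was whether tumours with a Cdkn2a deletion carried more or less copy-number change elsewhere. The autosomes were divided into segments of at least 5 probes, and a segment counted as altered at a mean of 0.2 or more in size. The 3 Mb around Cdkn2a (chromosome 4, 87 to 90 Mb, with 49 probes) were left out, which left 40677 autosomal probes. In the Cdkn2a-deleted tumours the altered share of these probes was 15.1% in 231 Trig, 23.3% in B86, 29.2% in B91, 21.3% in A382, 16.8% in B96 and 11.8% in A394. In the Cdkn2a-retaining tumours it was 39.99% in A18, 48.2% in A202, 28.1% in A390, 13.1% in A292 and 40.5% in B76. The sets overlapped: 3 Cdkn2a-retaining tumours lay above every Cdkn2a-deleted tumour, and A292 lay below all but A394. The means were 19.6% ± 6.28 in Cdkn2a-deleted and 34.0% ± 13.7 in Cdkn2a-retaining tumours (SD, n = 6 and 5). The difference of -14.4 percentage points had a two-sided exact permutation p of 0.0519, and 0.0649 after Benjamini-Hochberg adjustment over the 5 measures per tumour compared here, so it did not pass. The difference was -5.88 points where a call needed a mean of 0.3 (exact p 0.277) and -7.47 points without the 4 tumours of slide 1, which was read on another scanner (exact p 0.4).

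Losses, not gains, made up most of that difference. Losses covered 0.0221% of probes in 231 Trig, 0.0123% in B86, 1.36% in B91, 9.01% in A382, 0.0123% in B96 and 0.175% in A394. In the Cdkn2a-retaining tumours they covered 11.9% in A18, 30.6% in A202, 15.8% in A390, 0.0246% in A292 and 7.97% in B76. All Cdkn2a-retaining tumours but A292 thus lay above at least 5 of the 6 Cdkn2a-deleted tumours, and A382 was the one Cdkn2a-deleted tumour with broad losses. A382 lost 8.995% by its passage 8 array and 3.53% by its passage 9 array, since its whole-chromosome 8 segment lay on either side of the limit of -0.2, at -0.206 and -0.198. Losses averaged 1.77% ± 3.59 in Cdkn2a-deleted and 13.2% ± 11.3 in Cdkn2a-retaining tumours (SD, n = 6 and 5; exact permutation p 0.0433, and 0.0649 adjusted over the 5 measures). The Cdkn2a-deleted mean was 0.851% with A382 at passage 9 and 0.316% without A382. The difference was -11.5 points over all tumours, and -7.15 points without A202, with an exact p of 0.0952. Leaving out each of the 11 tumours in turn kept the unadjusted p under 0.05 in 3 cases, those of A382, A292 and B76.

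The gained shares overlapped between the sets. They averaged 17.8% ± 6.44 in Cdkn2a-deleted and 20.7% ± 9.11 in Cdkn2a-retaining tumours (SD, n = 6 and 5; exact permutation p 0.511). The difference was -2.91 points over all tumours and 0.027 points without B76. Chromosome 11, where the median was raised in all 11 tumours, supplied part of these gains. Its median averaged 0.60 ± 0.17 in Cdkn2a-deleted and 0.79 ± 0.18 in Cdkn2a-retaining tumours (SD, n = 6 and 5). Without chromosome 11 gains covered 11.3% and 14.5% on average in the Cdkn2a-deleted and Cdkn2a-retaining tumours.

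**Figure D2:**
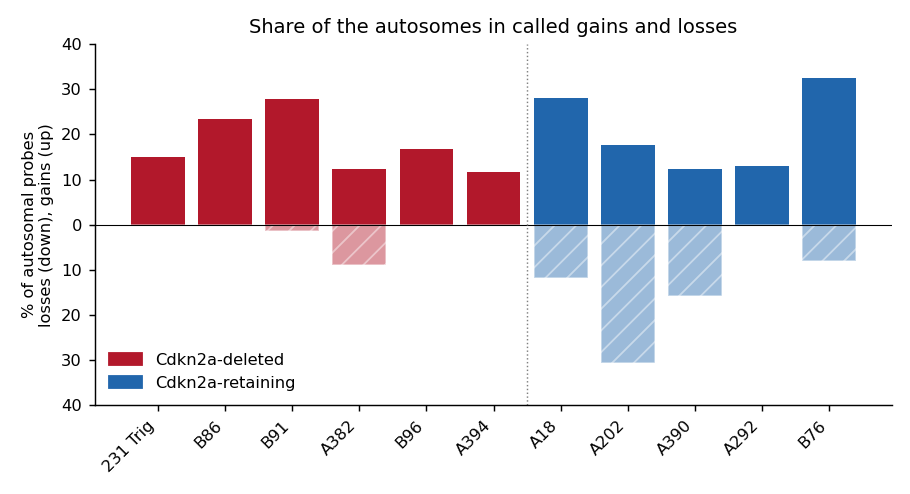
Percentage of autosomal probes outside the Cdkn2a window in called gains (solid bars, upward) and called losses (hatched bars, downward), per tumour. Losses reach 9.01% in A382 and at most 1.36% in the other Cdkn2a-deleted tumours, against 7.97% to 30.6% in 4 Cdkn2a-retaining tumours and 0.0246% in A292.

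These shares were also read within slides and strain backgrounds. Within slide 1, which was read on another scanner than slides 2 and 3, the altered share averaged 19.2% in 2 Cdkn2a-deleted and 44.1% in 2 Cdkn2a-retaining tumours. Within slide 2 the order turned, with 25.6% in the 2 Cdkn2a-deleted tumours (B91 and A382, with A382 read from its passage 8 array alone, since the passage 9 array was on slide 3) and 20.6% in the 2 Cdkn2a-retaining tumours (A390 and A292). Within slide 3 it was 14.3% in 2 Cdkn2a-deleted tumours and 40.5% in the 1 Cdkn2a-retaining tumour. The mean lost share was lower in the Cdkn2a-deleted tumours within every slide, at 0.0172% against 21.2% on slide 1, 5.18% against 7.91% on slide 2 and 0.0934% against 7.97% on slide 3. On slide 2 the tumours overlapped, with 1.36% in B91 and 8.995% in A382 against 15.8% in A390 and 0.0246% in A292. The mean lost share was also lower within each background, at 3.07% against 14.6% in the mixed tumours and 0.461% against 7.97% on C57BL/6J. B76 alone gives the Cdkn2a-retaining value both on slide 3 and on C57BL/6J. With strain background as a block the exact permutation p for losses was 0.0857, and with slide as a block it was 0.0926. Without the slide 1 tumours the difference in lost share was -5.29 points (exact p 0.457). Labelled passage ran from 5 to 9 in 5 Cdkn2a-deleted tumours, 231 Trig having none, and from 6 to 13 in the Cdkn2a-retaining tumours. Their means were 7.30 and 9.00 (exact permutation p 0.333), and the part of passage in the shares was not tested.

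Segments covering at least 0.5 of a chromosome's probes were counted to see which chromosomes carried the losses. The Cdkn2a-deleted tumours held 18 such gains and 2 such losses, both losses being in A382 (chromosome 8 at -0.20 and a stretch of chromosome 12 at -0.23). The Cdkn2a-retaining tumours held 17 such gains and 10 such losses, spread over 4 tumours. A202 had lost chromosome 8 (-0.44), 9 (-0.34) and 13 (-0.36) and the proximal part of 19 (-0.24). A390 had lost chromosomes 9 (-0.41), 18 (-0.28) and 19 (-0.24) and the distal part of 16 (-0.48), while A18 and B76 each had a loss of most of chromosome 1, at -0.21 and -0.24. Chromosome 1 was gained in 3 Cdkn2a-deleted tumours by the same measure, at 0.29 in B86, 0.22 in B91 and 0.51 in B96. Those 3 are the C57BL/6J tumours of the set, so strain background and Cdkn2a class cannot be told apart in that count, although the C57BL/6J tumour B76 had the loss. The number of segment breaks per tumour averaged 27.3 ± 15.5 in the Cdkn2a-deleted and 30.2 ± 9.497 in the Cdkn2a-retaining tumours (SD, n = 6 and 5; exact permutation p 0.753).

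The median of each autosome was then compared. None of the 19 autosomes (0%) passed at an adjusted p under 0.05 by the exact permutation test with Benjamini-Hochberg adjustment, and the sets overlapped on all 19. With 462 possible splits the smallest p is 0.00433, so 1 autosome alone could not reach below 0.0823 after adjustment. At an unadjusted p under 0.05 there were 4 autosomes (21.1%), namely 19, 3, 16 and 13.

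Chromosome 19 had medians of 0.03 in 231 Trig, 0.27 in B86, 0.13 in B91, 0.16 in A382, 0.25 in B96 and 0.07 in A394. They were 0.0020 in A18, -0.23 in A202, -0.23 in A390, 0.05 in A292 and 0.0031 in B76. All 6 Cdkn2a-deleted medians were thus above 0, and only 231 Trig, at 0.03, fell below the highest Cdkn2a-retaining tumour, A292. The difference of 0.23 had an unadjusted exact p of 0.00866 and an adjusted p of 0.123. It was 0.18 among the mixed-background tumours alone.

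Chromosome 3 went the other way. Its medians were -0.01 in 231 Trig, -0.02 in B86, -0.02 in B91, 0.05 in A382, 0.01 in B96 and -0.01 in A394. In the Cdkn2a-retaining tumours they were 0.23 in A18, 0.10 in A202, 0.20 in A390, 0.00085 in A292 and 0.35 in B76. The 6 Cdkn2a-deleted tumours stayed near 0, whereas 4 of the 5 Cdkn2a-retaining tumours had a median of 0.10 or above and A292 did not. A202 lay below the call limit of 0.2, and its chromosome 2 median was 0.10 as well. Only B76 had a called segment over at least 0.5 of the probes of chromosome 3. The difference was -0.18 (exact p 0.0130 unadjusted, 0.123 adjusted), and it was -0.12 among the mixed-background tumours alone. With strain background as a block the unadjusted exact p was 0.0286 for chromosome 3 and 0.0286 for chromosome 19.

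On chromosome 16 the medians lay between -0.07 and -0.0043 in the Cdkn2a-deleted tumours and between -0.37 and -0.03 in the Cdkn2a-retaining tumours, with A202 at -0.33 and A390 at -0.37. The difference was 0.14 (exact p 0.0303, adjusted p 0.185). On chromosome 13 they lay between -0.11 and -0.05 in the Cdkn2a-deleted and between -0.36 and -0.08 in the Cdkn2a-retaining tumours (difference 0.10, exact p 0.0390, adjusted p 0.185). With slide as a block the unadjusted exact p was 0.0370 for chromosome 3 and 0.0185 for chromosome 19, but 0.0741 for chromosome 16 and 0.0556 for chromosome 13. A292, with its intermediate Cdkn2a value, was near 0 on chromosomes 3, 16 and 19. When A292 was counted with the Cdkn2a-deleted tumours, chromosomes 3, 16 and 19 passed, each with an adjusted p of 0.0384 by the exact permutation test. On these chromosomes A292 lay within the range of the Cdkn2a-deleted tumours, so the move itself removed the overlap and gave the smallest p possible. Whether the Cdkn2a value of A292 bears on these medians was not tested. Each Cdkn2a-retaining tumour left out in turn gave no autosome that passed. In those fits no exact permutation p can go below 0.00952, so a few autosomes at that value would still not pass. That outcome therefore cannot decide whether these chromosomes differ.

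**Figure D3:**
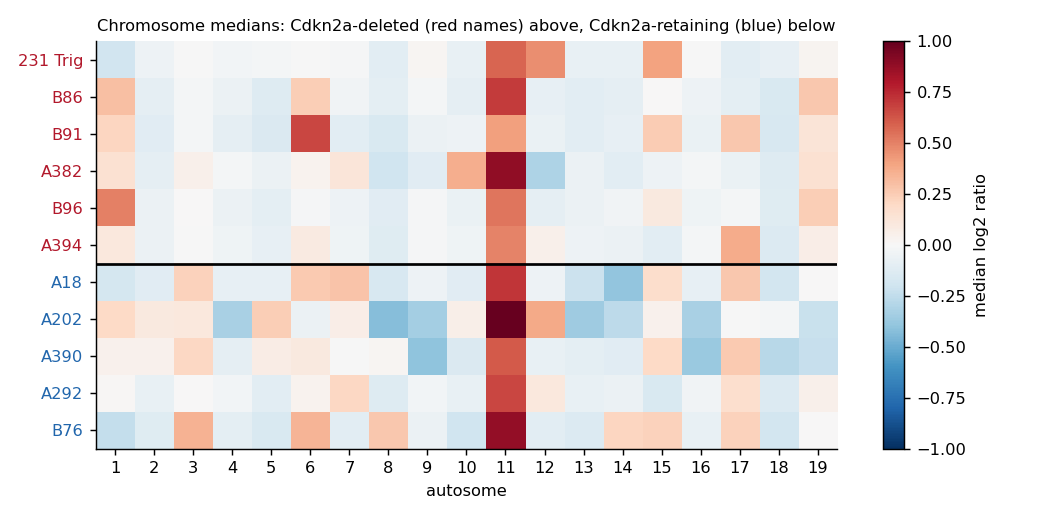
Median log2 ratio of each autosome (columns) in each tumour (rows), with the 6 Cdkn2a-deleted tumours above the line and the 5 Cdkn2a-retaining tumours below it. Chromosome 11 is raised in all rows. On chromosome 3 the rows above the line lie between -0.02 and 0.05, and on chromosome 19 all rows above the line are positive.

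The second question was which focal events, other than the Cdkn2a deletion, the sets carried. A focal event was a called segment of at most 10 Mb, and it was high-level at a mean of 1 or more in size. Outside the Cdkn2a window there were 31 high-level focal events, 7 in the Cdkn2a-deleted and 24 in the Cdkn2a-retaining tumours. Of the 7 events in Cdkn2a-deleted tumours, 6 were the short gain near AK155119 on chromosome 11 that all 11 tumours showed, with segment means from 1.45 to 2.48 in Cdkn2a-deleted and from 1.59 to 2.83 in Cdkn2a-retaining tumours, and 1 was a 38.4 kb gain over Alad in 231 Trig. The 24 events in Cdkn2a-retaining tumours were 18 gains and 6 losses.

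High-level gains numbered 2 in 231 Trig and 1 in each of B86, B91, A382, B96 and A394. They numbered 3 in A18, 3 in A202, 6 in A390, 1 in A292 and 5 in B76. Apart from A292, each Cdkn2a-retaining tumour had more than every Cdkn2a-deleted tumour. The means were 1.17 ± 0.408 and 3.60 ± 1.95 in the Cdkn2a-deleted and Cdkn2a-retaining tumours (SD, n = 6 and 5; exact permutation p 0.0303, and 0.0649 adjusted over the 5 measures). Without A390 the difference of -2.43 became -1.83 (exact p 0.0667). Among events of at least 0.5 Mb, a length chosen after the data were seen, there were 0 in the Cdkn2a-deleted tumours and 9 in the Cdkn2a-retaining tumours, with 2 in A18, 1 in A202, 3 in A390, 0 in A292 and 3 in B76. The exact permutation p for that count was 0.0303.

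Called high-level losses numbered 0 in every Cdkn2a-deleted tumour, against 2 in A18, 2 in A202, 0 in A390, 1 in A292 and 1 in B76. Their means were 0 and 1.20 ± 0.837 (SD, n = 6 and 5; exact permutation p 0.0303, adjusted 0.0649 over the 5 measures). When loci that 4 or more other tumours shared were left out, the losses averaged 0 and 0.800 (exact p 0.364). The count of 0 depended on how segments were called. Over the Itln1 and Cd244a probes, called as such a loss in A292 and B76, 231 Trig averaged -1.27 without a called segment. The other Cdkn2a-deleted tumours were less than 1 in size there. The Cdkn2a-deleted mean rose above 0 with normexp, loess, a segmentation penalty of 20, segments of 3 probes or a limit of 0.7.

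**Figure D4:**
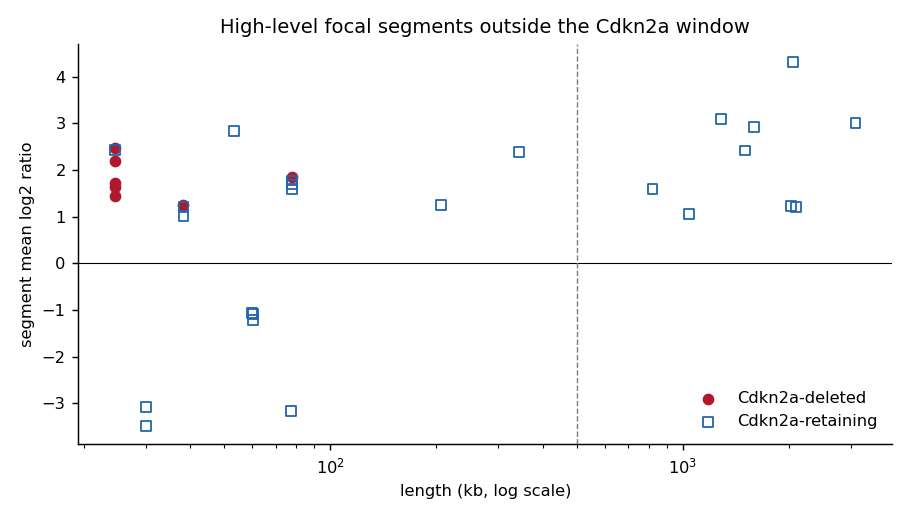
Segment mean log2 ratio against length (kb, log scale) of the 31 high-level focal events outside the Cdkn2a window. Filled circles are events of Cdkn2a-deleted tumours and open squares those of Cdkn2a-retaining tumours. The dashed line marks 0.5 Mb, and all 9 events to its right are gains of Cdkn2a-retaining tumours.

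Of these gains, 3 held Myc, the transcription factor that drives growth and cell-cycle genes. The Myc probe had log2 ratios of 0.33 in 231 Trig, -0.17 in B86, 0.23 in B91, -0.10 in A382, 0.13 in B96 and -0.14 in A394. It had 0.39 in A18, 2.40 in A202, 3.30 in A390, -0.19 in A292 and 4.47 in B76. The gain was thus in 3 of the 5 Cdkn2a-retaining tumours and in 0 of the 6 Cdkn2a-deleted tumours, none of which was above 0.33. The segments around it averaged 2.42 over 12 probes in A202, 3.00 over 15 probes in A390 and 4.31 over 9 probes in B76. They shared chr15:60562387-61818102, a stretch of 1.26 Mb with 7 probes that named Myc and 4 cDNA accessions. Mean Myc log2 ratio was 0.05 ± 0.21 in Cdkn2a-deleted and 2.08 ± 1.96 in Cdkn2a-retaining tumours (SD, n = 6 and 5). The difference of -2.03 ± 0.63 (SE) had a limma p of 0.00587 and an adjusted p of 0.485 over all genes, so it did not pass.

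A390 and B76 carried further gains on chromosome 15. In A390 a segment of 1.60 Mb at chr15:3229082-4824354 averaged 2.93 over 24 probes and held the growth hormone receptor gene Ghr. Ghr was at 3.06 there and between -0.21 and 0.30 in the Cdkn2a-deleted tumours. In A390 segments with Asap1 and Cyrib (0.343 Mb, mean 2.39) and with Trappc9 (1.28 Mb, mean 3.09) lay distal to Myc. In B76 a segment of 0.820 Mb with the semaphorin gene Sema5a and the syndecan gene Sdc2 averaged 1.59. B76 also had a gain of 1.04 Mb on chromosome 8 over Lig4, the DNA ligase of end joining, with a mean of 1.05.

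A18, which had no high-level gain at Myc, had gains on chromosomes 7 and 10. The chromosome 10 gain ran over chr10:125404379-127428063 (2.02 Mb, 74 probes, mean 1.22) and named 47 genes, among them Gli1, Ddit3, Stat6 and Lrp1. Gli1, a transcription factor of Hedgehog signalling, had a log2 ratio of 1.64 in A18. It was between -0.41 and 0.14 in the Cdkn2a-deleted tumours and between -0.44 and -0.11 in the other 4 Cdkn2a-retaining tumours. No probe on the array was named Cdk4. In the gene order of RefSeq assembly GRCm38.p6 Cdk4, the kinase that p16INK4a inhibits, lies between Marchf9 and Tspan31, and these had log2 ratios of 1.64 and 1.24 in A18. The chromosome 7 gain in A18 covered chr7:12807782-14904306 (2.10 Mb, 36 probes, mean 1.21) and named 24 genes, Lig1, which encodes a DNA ligase, and Trim28 among them.

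Other high-level events were shorter, and several lay at loci where tumours of both sets carried calls in the same direction. A gain over Alad, the gene of an enzyme of haem synthesis, was high-level in 231 Trig (1.25), A202 (1.01) and A390 (1.21). The same segment was called in A18 at 0.81, below the high-level limit. All 4 tumours are of the mixed background, although A382 (0.05), A394 (0.02) and A292 (0.03) of that background were not raised over the same probes. The olfactory receptor locus of Olfr1046 and Olfr1048 on chromosome 2 was lost in A18 (-3.49) and A202 (-3.08), and the Olfr1048 probe was at -1.36 in 231 Trig, -0.89 in A394, -0.78 in A390 and -0.86 in A292, which are of the mixed background. A382, of the mixed background too, was at -0.11. The locus of Itln1 and Cd244a on chromosome 1 was called as a high-level loss in A292 (-1.08) and B76 (-1.22). Each of these losses overlapped calls of 4 other tumours in the same direction. Over the same probes the Cdkn2a-deleted tumours were at -1.27 in 231 Trig, -0.84 in B86, -0.92 in B91, -0.66 in B96, -0.34 in A394 and 0.07 in A382. The other Cdkn2a-retaining tumours were at 0.06 in A18, 0.52 in A202 and 0.11 in A390. In B76 a gain of 0.206 Mb over Slc25a37, Entpd4 and Loxl2 on chromosome 14 (mean 1.26) overlapped calls of 5 other tumours in the same direction. Whether these loci differ between SJL/J and C57BL/6J DNA was not tested. A18 also had a high-level loss of 59.9 kb on chromosome 2 over Gchfr, Dnajc17 and Ppp1r14d (mean -1.07), which no other tumour shared.

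**Figure D5:**
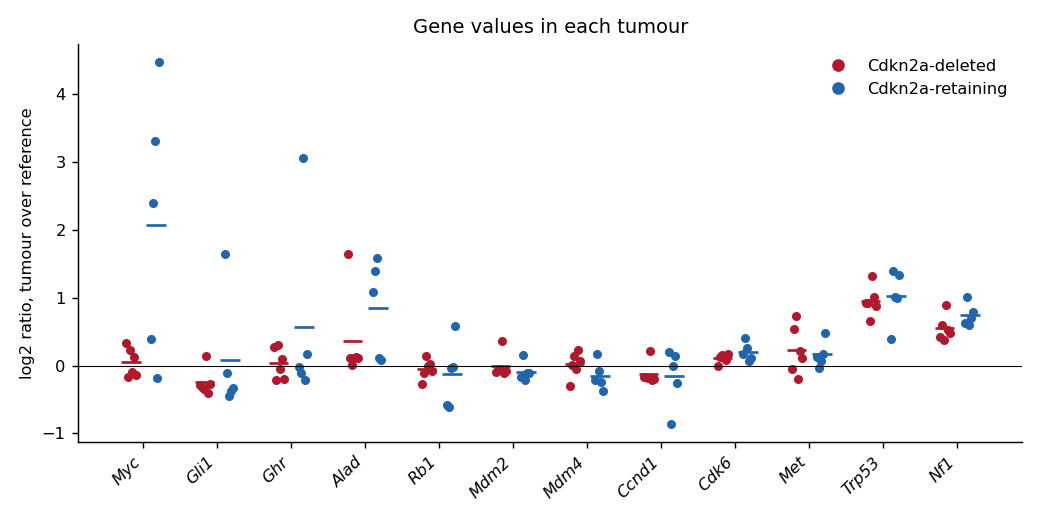
Log2 ratio of 12 genes in each tumour, with Cdkn2a-deleted tumours on the left of each gene and Cdkn2a-retaining tumours on the right. Short bars are means. Myc stands above 2 in 3 Cdkn2a-retaining tumours, Gli1 at 1.64 in A18 and Ghr at 3.06 in A390, while Trp53 and Nf1 on chromosome 11 lie above 0 in all 11 tumours.

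Genes were then tested 1 by 1 with limma on the mean log2 ratio of their probes, over 19984 autosomal genes. To pass, a gene needed a difference of at least 0.2 in size and an adjusted p (Benjamini-Hochberg) under 0.05. No gene (0%) was higher in the Cdkn2a-deleted tumours, and 1 gene (0.005%) was lower, which was Cdkn2a itself, the gene of the rule. Outside the Cdkn2a window 0 of 19965 genes passed by limma in either direction, while 2042 (10.2%) had an unadjusted limma p under 0.05, of which 1072 (5.37%) were higher and 970 (4.86%) lower in the Cdkn2a-deleted tumours. Neighbouring genes share segments and are not independent. Of the 1072 higher genes, 430 (40.1%) lay on chromosome 19, and of the 970 lower genes, 560 (57.7%) lay on chromosome 3. The sets did not overlap for 105 genes (0.526%) higher in the Cdkn2a-deleted tumours, 56 of them on chromosome 19, and for 56 genes (0.28%) lower, 42 of them on chromosome 3.

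The 10 genes of largest difference among the 100 smallest p outside the window did not pass, each with a limma adjusted p of 0.485. The 5 highest were the DNA helicase gene Pif1 (0.79), the secreted glycoprotein gene Olfm2 (0.79), Olfr1046 (0.57) and the cDNAs AK086943 (0.53) and AK015565 (0.49). Pif1 on chromosome 9 was at 0.35 or above in 5 Cdkn2a-deleted tumours and at -0.05 in 231 Trig. It was between -1.08 and -0.26 in the 4 mixed-background Cdkn2a-retaining tumours and at 0.46 in B76, so the sets overlapped through B76. Pif1 rests on 1 probe, and the segments around it differed by 0.14, as against 0.13 for the segments around the 2 probes of Olfm2. The 5 lowest were the cDNAs AK017120 (-0.56), AK077267 (-0.47) and AK029938 (-0.46, with A202 missing), the membrane protein gene Jtb (-0.50) and the lysosomal mannosidase gene Manba (-0.45). Jtb on chromosome 3 lay between -0.55 and -0.21 in the Cdkn2a-deleted tumours and between -0.10 and 0.30 in the Cdkn2a-retaining tumours, with no overlap. It rests on 1 probe, and the segments around it differed by -0.21. By segments AK017120 differed by -0.18, AK077267 by -0.05, AK029938 by -0.21 and Manba by -0.19. Among the highest genes AK086943 differed by 0.14 and AK015565 by 0.22 by segments, whereas Olfr1046 differed by 1.14, more than by its own value.

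Partners of the 2 Cdkn2a proteins were read gene by gene. In the ARF and p53 list 0 of 12 measured genes passed in either direction by limma. Of these, 0 had an unadjusted p under 0.05, against 10.2% of all genes outside the window, and lists this short cannot tell 0 from that share. The median difference was 0.09, against -0.01 over all genes outside the window. Trp53, the p53 gene on chromosome 11, averaged 0.95 ± 0.21 in Cdkn2a-deleted and 1.02 ± 0.39 in Cdkn2a-retaining tumours (SD, n = 6 and 5). Its lowest value was 0.40 in A18, in a segment of 1.27 Mb with 90 probes and a mean of 0.24. The next distal segment of chromosome 11 in A18 had a mean of 0.71. Mdm2, the ubiquitin ligase that ARF inhibits, averaged -0.0048 ± 0.18 and -0.09 ± 0.14 in the Cdkn2a-deleted and Cdkn2a-retaining tumours, and its highest value was 0.36 in A382. Its relative Mdm4 averaged 0.02 ± 0.18 and -0.15 ± 0.21. The list's largest differences were those of the ARF-binding nucleophosmin gene Npm1 (-0.21), the damage kinase gene Atm (0.20), the p53 target Bbc3 (0.19) and the phosphatase gene Ppm1d (-0.18), all with limma adjusted p from 0.485 to 0.558. Npm1 and Ppm1d lie on chromosome 11, whose median differed by -0.18 as a whole. Bbc3 was at -0.75 in A18, in a lost segment of 0.402 Mb on chromosome 7 with a mean of -0.76, and between -0.16 and 0.32 in the other 10 tumours.

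In the INK4 and Rb list 0 of 16 measured genes passed by limma and 0 had an unadjusted p under 0.05, against 10.2% of all genes outside the window. The median difference was -0.01, with a range from -0.16 for the cyclin gene Ccnd3 to 0.11 for the transcription factor gene E2f3. Cdk6 averaged 0.11 ± 0.06 in Cdkn2a-deleted and 0.21 ± 0.13 in Cdkn2a-retaining tumours, and Ccnd1, the cyclin D1 gene, -0.12 ± 0.16 and -0.15 ± 0.43 (SD, n = 6 and 5). Ccnd1 was at 0.21 in A382 and at -0.85 in A202. It rests on 1 probe, and its direction turned with neighbouring probes. The difference was 0.03 by that probe, -0.12 by segments and -0.09 by a running median of 5 probes. Rb1 averaged -0.05 ± 0.14 and -0.13 ± 0.49, and within the Cdkn2a-retaining set it was at -0.58 in A18, -0.61 in A202 and 0.59 in B76. No probe was named Cdkn2b, Cdk2 or Cdkn2d.

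Among regulators of the Cdkn2a locus, which include Polycomb genes that silence it, 0 of 18 measured genes passed by limma. Of these, 0 had an unadjusted p under 0.05, against 10.2% of all genes outside the window. Their median difference was -0.11, against -0.01 over all genes outside the window. The largest differences were those of the Polycomb genes Cbx2 (-0.25) and Ring1 (-0.20) and of the repressors Tbx2 (-0.19) and Id1 (-0.18, with B86 missing). Each of these rests on 1 probe, and the segments around Id1 differed by only -0.05. Cbx2 and Tbx2 lie on chromosome 11, whose median differed by -0.18 as a whole. Among nerve sheath tumour suppressors 0 of 12 passed by limma and 1 (Rassf1) had an unadjusted p under 0.05, against 10.2% of all genes outside the window, with a median difference of -0.09. Nf1, whose loss causes neurofibromatosis, averaged 0.55 ± 0.18 in Cdkn2a-deleted and 0.75 ± 0.17 in Cdkn2a-retaining tumours (SD, n = 6 and 5) and was at 0.37 or above in all 11. The largest differences there were those of Rassf1 (-0.29), Prkar1a (-0.25) and Nf2 (-0.25). Prkar1a and Nf2 lie on chromosome 11 too, as does Nf1. Rassf1 rests on 1 probe, and its direction turned with neighbouring probes, with a difference of 0.14 by segments and 0.04 by a running median of 5 probes. Among growth drivers 0 of 24 measured genes passed by limma and 3 (Myc, Pik3ca and Axl) had an unadjusted p under 0.05, a share near the 10.2% of all genes. Their median difference was -0.07. After Myc and Gli1 the largest differences were those of the PI3K subunit gene Pik3ca on chromosome 3 (-0.28) and the receptor kinase gene Axl (-0.23). By segments Pik3ca differed by -0.16. Axl rests on 1 probe and differed by -0.10 by segments and -0.11 by a running median of 5 probes. Met, the receptor of hepatocyte growth factor, averaged 0.22 ± 0.35 and 0.16 ± 0.19 in the Cdkn2a-deleted and Cdkn2a-retaining tumours, with its highest value of 0.73 in B91.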

How the data were processed

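DNA of 11 tumours was measured on 12 Agilent 2-colour arrays. The deposited ratios are log10 of Cy5 (tumour) over Cy3 (Schwann cell) signal, and the channel brightness is given as intensity, per the file headers. Before deposit the authors' scanner software, named in the submitters' processing notes as Agilent Feature Extraction 9.5 with build mm9, subtracted background, removed spatial trend and normalised the dyes linearly, per the file headers. Tumour DNA was Cy5 on every array, and dye and tumour effects cannot be told apart. Ratios were converted to log2, spots marked as outliers or non-uniform (0.0604% to 1.99% per array) were dropped, probes averaged, arrays centred on the median of 40726 autosomal probes, and the A382 arrays averaged. The intensities were used for normexp correction, for loess and for the channel values. No spot was saturated and at least 99.4% were well above background, and the number of arrays limits the precision. Probe noise (SD) was 0.180 to 0.246 in Cdkn2a-deleted and 0.183 to 0.226 in Cdkn2a-retaining tumours.

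Segments came from penalised least squares (penalty of 40 noise variances per break, at least 5 probes, single probes limited to 3 noise SD about a running median of 5). Exact permutation tests (scipy 1.17.1) used all 462 splits, and limma 3.58.1 in R 4.3.3 compared the sets per gene. The segmentation and limma were tested on simulated data, and the permutation test on a fixed series of values. Gene symbols were updated through RefSeq accessions for 28951 of 29337 probes that carried one. The genes named are the 5 highest and 5 lowest differences among the 100 smallest p (fewer than 10 genes passed), up to 4 leading members of each of 5 lists, a fixed set of Cdkn2a-related genes, and genes of high-level focal events. The sets, lists and tests were chosen with earlier results of these data known. Labels give the tumours numbers in accession order only, so none were paired. Alternatives left out each tumour in turn, changed the centring, background correction, thresholds, segmentation and set rule, and used strain background or slide as a block. One gene, and the focal event that holds it, is counted but not reported here.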

Additional observations from a re-analysis of the deposited data

Results flagged for a closer look

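Single tumours far from the rest of their set were found in 9 of 91 set-by-result groups of 5 or 6 tumours by Dixon's test, where chance would give about 1 in 20. A382 accounted for 5 of them in the Cdkn2a-deleted set, with a lost share of 9.01%, a chromosome 10 median of 0.36, and log2 ratios of 0.14 at Gli1, 0.21 at Ccnd1 and 0.36 at Mdm2. Gli1 and Mdm2 both lie on chromosome 10, and Ccnd1 rests on 1 probe. 231 Trig accounted for 2, with a log2 ratio of -0.053 at Pif1 and with 2 high-level focal gains, where the other 5 tumours each had 1, so that any other count would be found by this test. In the Cdkn2a-retaining set A202 stood apart by its chromosome 4 median of -0.33, and A18 by its Gli1 value of 1.64.

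Differences between the sets with an unadjusted exact permutation p under 0.05 were those of the lost share (-11.5 percentage points, p 0.0433), high-level focal gains per tumour (-2.43, p 0.0303) and high-level focal losses per tumour (-1.20, p 0.0303). The adjusted p was 0.0649 for each.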

How the results depend on the processing

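Direction held for the altered share, the lost share, and both counts of focal events under all alternatives. Their unadjusted exact p-values ranged from 0.0121 to 0.4 for the altered share, 0.0121 to 0.457 for losses, 0.00606 to 0.286 for high-level gains and 0.00952 to 0.394 for high-level losses. Leaving out each tumour in turn gave differences of -19.6 to -10.8 points for the altered share, -14.8 to -7.15 for losses, -5.02 to 0.027 for gains (above 0 only without B76), -3.08 to -1.83 for high-level gains and -1.50 to -1 for high-level losses. Unadjusted calls changed for the altered share without A292 (p 0.0190) or B91 (0.0476), for high-level gains without A18, A202, A390 or B76 and for high-level losses without A18, A202, A292 or B76 (0.0667 each). The altered share passed 0.05 unadjusted with centring on the mode (-14.2), normexp (-17.9), loess (-14.6), strain background as a block (-16.6), A382 at passage 9 (-15.2), without A292 and A202 (-16.6), A292 moved to the Cdkn2a-deleted set (-20.5) and a penalty of 20 (-15.1). It was -7.47 without slide 1, -5.88 at a call threshold of 0.3, -14.5 at 0.1, -16.3 in mixed-background tumours only and -13.99 with slide as a block, none of which passed. Gains differed by 1.44 points at a call threshold of 0.3. The lost share no longer passed with strain (-10.3) or slide (-10.9) as a block, in mixed-background tumours only (-11.5), without slide 1 (-5.29), at a threshold of 0.1 (-7.81) and with segments of 3 probes (-10.5). At a threshold of 0.3 it passed unadjusted at -7.32. High-level gains no longer passed with the mode (-2.23), normexp (-2.03), strain block (-2.55), mixed only (-1.92), slide block (-2.50), without slide 1 (-3.00), penalty 20 (-3.47) and a limit of 0.7 (-2.53). High-level losses no longer passed with normexp (-0.433), loess (-0.867), strain block (-1.17), mixed only (-1.25), slide block (-1.19), without slide 1 (-0.667), without A292 and A202 (-1), A292 moved (-1.11), segments of 3 probes (-0.700), a limit of 0.7 (-1.53) and without shared loci (-0.800). Mixed-only and no-slide-1 fits have 3 tumours in 1 set and 4 in the other, where no exact p can go below 0.0571. In the other fits the cause was not tested.

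Autosomes that passed numbered 0 under all alternatives except A292 moved, which gave 3. The number of splits limits these counts. Mixed-only and no-slide-1 fits could not pass, since no exact p goes below 0.0571 there. The lowest possible exact p was 0.0185 with slide and 0.0143 with strain background as a block. In these block fits, and in those without 1 tumour, an autosome could pass only if several reached the lowest p together. Genes outside the window numbered 0 in both directions in limma under all alternatives except without B76, where 1 gene (AK086943, difference 0.68, adjusted p 0.0437) was higher, so leaving out each tumour gave 0 to 1. Among autosome medians and named genes that never passed, 135 values changed sign under an alternative. No paired analysis was possible because replicate numbers follow accession order and tie no tumours together.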

Other observations

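Focal events below the high-level limit were present in Cdkn2a-deleted tumours as well. On chromosome 6 of B91 a broad gain of 76.6 Mb with a mean of 0.63 was followed by steps of 0.42 over 1.06 Mb, 0.80 over 8.31 Mb and 0.39 over 1.38 Mb. The segment at 0.80 held the cyclin gene Ccnd2 and the transcription factor gene Foxm1, and the one at 0.39 held the kinase inhibitor gene Cdkn1b. The gene-dense region of chromosome 10 with Dot1l, which encodes a histone methyltransferase, was low in 2 Cdkn2a-deleted tumours. It was at -0.52 over 0.960 Mb in A394 and at -0.73 over 0.234 Mb in B91.

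A18 held a group of focal losses that no other tumour shared. They were at -0.90 over 0.139 Mb with Stk4 and Ywhab on chromosome 2, at -0.88 over 0.133 Mb with Cdk2ap1 on chromosome 5, and at -0.91 over 0.957 Mb with Vcl and Plau on chromosome 14. These loci were picked after their values were seen and were not tested between the sets.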
